A study of Mus musculus with 15 samples.

Results

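MGT cells are mouse embryonic fibroblasts (MEF) that were given retrovirus for Mef2c, Gata4 and Tbx5 and collected 1 week later, and they are compared here with MEF libraries titled as controls. Total RNA of ICR cells was sequenced after removal of ribosomal RNA. The series holds 15 libraries, and the comparison used the 5 MEF and the 5 MGT libraries, 10 in all, chosen by their titles. The remaining 5 libraries, MΔGΔT, come from fibroblasts given retrovirus with altered versions whose symbol Δ the labels do not define, and they enter where MGT differed from them. The labels name no virus and give no time after transduction for the MEF libraries. The effects of the 3 factors, of being transduced and of any difference in time in culture therefore cannot be told apart. The labels also do not say whether the 5 libraries of a group came from separate cultures. The p-values therefore measure the spread between libraries, which may be technical. No label gives the share of MGT cells that took up all 3 viruses, or any sorting.

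Mef2c, Gata4 and Tbx5 are transcription factors of the embryonic heart. Expressed together in fibroblasts, they switch on part of the heart muscle programme, and the products are called induced cardiomyocyte-like cells. Mef2c is a MADS-box factor that binds A- and T-rich sites in muscle promoters and enhancers, Gata4 is a zinc-finger factor, and Tbx5 is a T-box factor of the atria and the conduction system. A heart muscle cell is built around sarcomeres, in which myosin thick filaments slide along actin thin filaments anchored at Z-discs, and it contracts when calcium leaves the sarcoplasmic reticulum through ryanodine receptors. A fibroblast secretes and crosslinks collagen-rich matrix.

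Levels are given as CPM, counts scaled to a common library size after adjustment for composition, and fold changes on the log2 scale as MGT over MEF with their SE, for 5 and 5 libraries. Every adjusted p is from edgeR's quasi-likelihood test with Benjamini-Hochberg adjustment over all 13328 tested features of the 14091 listed, and rose and fell are used for adjusted p under 0.05. Total counts were 8.21 to 10.4 M counts in MEF and 9.29 to 11.1 M in MGT. MEF replicate 1 differed from the other MEF libraries by a chi-square of 4.5 to 7.13 per degree of freedom, against 1.96 to 3.9 among those others and 2 to 2.8 among MGT libraries. In MGT 4120 features rose (30.9% of those tested) and 4040 fell (30.3%), and the median log2 fold change of all tested features was 0.00. With library sizes taken as plain totals, without the composition adjustment, 5183 rose and 3275 fell, and the median of all features moved up by 0.08. Without MEF replicate 1 these counts were 4086 and 3997. With at least a 2-fold change, 915 rose (6.87%) and 1251 fell (9.39%). The 5 MGT values lay wholly above or below the 5 MEF values for 6098 features (45.8%). These shares are the background given for the counts of each gene list. The lists were written with earlier results of these data known, so their counts describe the lists and are not a test of them.

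Rises outnumbered falls at cut-offs of 4 and 6 on the log2 scale, whereas falls outnumbered rises at cut-offs of 2 and 3. A log2 fold change of at least 2 was called for 427 rises and 578 falls, of at least 3 for 225 rises and 252 falls, of at least 4 for 138 rises and 39 falls, and of at least 6 for 48 rises and 2 falls. At 0 counts in every MEF library were 46 listed features, of which 30 had counts in each MGT library and 16 averaged at least 1 CPM there. At 0 in every MGT library were 5 features, none of which reached 1 CPM in MEF. Of those 5, Vtn, P2ry12 and Mup20 held 45, 39 and 39 counts over the MEF libraries, while Xirp1 and Gm45423 were at 0 in both groups. The deposited RPKM, a length-scaled level, was above 0 for 158 of the 996 values at 0 counts in these 10 libraries, so it rests on other counts than those tested. It was above 0 in MEF for 7 of the 46 features and in MGT for 3 of the 5, P2ry12, Xirp1 and Gm45423. The plot of mean levels shows the same shape, with sarcomere genes far above the diagonal at low MEF levels and macrophage markers in a band below it.

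**Figure D1:**
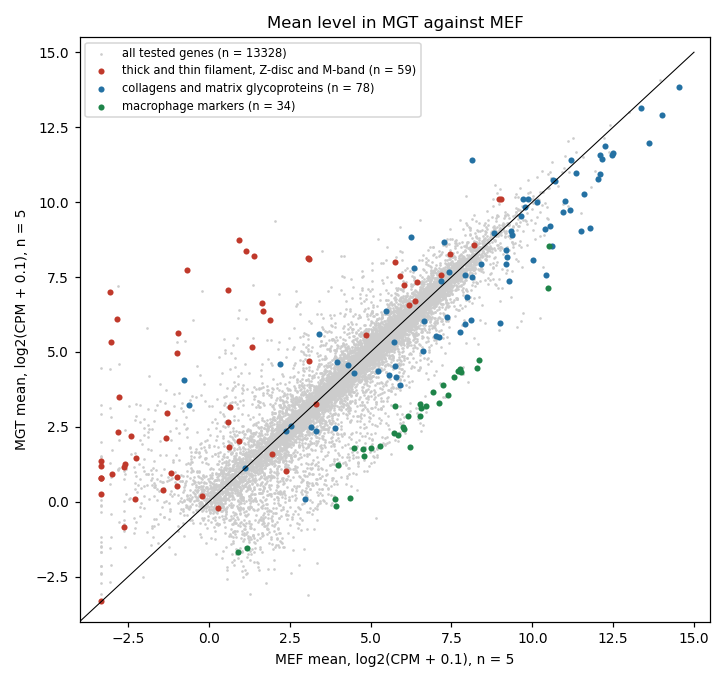
Mean level of each of the 13328 tested genes in MEF (horizontal) and MGT (vertical), both as log2(CPM + 0.1) over 5 libraries, with the line of equality and 3 groups of listed genes in colour. Of the 34 macrophage markers every point lies below the line, and most sarcomere genes lie above it.

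The 3 transduced factors serve as a check of the labels. Mef2c stood at 59.3, 60.9, 59.8, 57.8 and 59.9 CPM in MEF replicates 1 to 5 and at 594, 533, 637, 559 and 565 CPM in MGT. Gata4 stood at 3.13, 1.92, 2.57, 1.93 and 2.79 CPM in MEF and at 156, 138, 168, 139 and 155 CPM in MGT. Tbx5 stood at 5.36, 4.02, 4.25, 3.74 and 4.46 CPM in MEF and at 122, 117, 137, 120 and 119 CPM in MGT. All 10 libraries went with their labels, and for none of the 3 genes did the groups overlap. Gata4 rose furthest, by 5.93 ± 0.0837, then Tbx5 by 4.81 ± 0.0708 and Mef2c by 3.28 ± 0.0440. These counts can include viral transcripts, and a count over the whole gene does not separate them from the cell's own.

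Other regulators of heart development split between rises and falls. The list of such factors and their partners had 37 tested genes, of which 17 were called higher and 13 lower, with a median of -0.02. Smyd1, a muscle methyltransferase needed for sarcomere assembly, rose from 4 counts over all MEF libraries to 7.74 to 10.9 CPM (6.51 ± 0.300, adjusted p = 1.6e-21). Tbx20, a T-box factor of the heart, rose from 0.767 to 1.12 CPM to 8.48 to 9.61 CPM, and the serum response factor partner myocardin (Myocd) from 1.11 to 2.01 CPM to 8.47 to 10.99 CPM. In log2 terms these were rises of 3.22 ± 0.173 and 2.72 ± 0.142. Tbx2 rose by 1.92 ± 0.0768. Gata6, a relative of Gata4, and Zfpm2, the cofactor FOG2 that binds GATA factors, fell by 0.45 and 0.70, and Irx1, a homeodomain factor, fell by 1.98. Hand2 stood at 2.39 ± 0.412 CPM in MEF and 2.22 ± 0.717 CPM in MGT (SD, n = 5), which did not differ beyond that spread (adjusted p = 0.764).

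The 3 Hey genes, repressors that are targets of Notch signalling, fell together. They are named after their values were seen. Hey1 went from 8.02 ± 0.486 to 1.46 ± 0.280 CPM, Hey2 from 7.21 ± 1.13 to 1.59 ± 0.242 CPM and Heyl from 4.997 ± 1.26 to 1.06 ± 0.416 CPM (SD, n = 5). None of the 3 genes overlapped between the groups.

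Muscle RNA-binding and splicing regulators mostly rose, 15 of 21 with 4 falls and a median of 0.29. Rbm20, which controls splicing of titin, rose from 1.98 ± 0.424 to 14.8 ± 1.09 CPM (2.90 ± 0.126), and Rbm24, another regulator of muscle splicing, from 0.604 ± 0.222 to 8.26 ± 1.02 CPM (3.75 ± 0.202). Rbpms rose by 1.597 ± 0.0581. The general splicing regulator Mbnl1, named after its values were seen, fell by 0.42 ± 0.0392. Chromatin regulators moved little. Of 39 tested, 21 rose and 5 fell, with a median of 0.15. The polycomb gene Bmi1, known as a barrier to cardiac reprogramming, fell from 51.04 ± 4.25 to 41.7 ± 3.12 CPM (-0.29 ± 0.0575, adjusted p = 3.0e-05). Hdac4, a class IIa deacetylase that binds Mef2 factors, rose by 0.60 ± 0.0413, and the chromatin remodeller Baz1a by 0.64 ± 0.0556. The polycomb methyltransferase Ezh2 was not called (-0.11 ± 0.0655). Suv39h1, a histone H3 methyltransferase named after its values were seen, was the 1 member that changed by 2-fold or more, at 5.04 to 5.36 CPM in MEF and 10.3 to 12.03 CPM in MGT.

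Genes of the contractile filaments mostly rose. In the thick filament list 10 of 10 tested genes rose, with a median of 7.17, or 5.15 where genes at 0 in MEF are set to their lower bound. In the thin filament list 13 of 16 rose and 1 fell (median 2.79). Of the 17 thick and 20 thin filament genes listed, 7 and 4 were not tested, and a gene that is near 0 in MEF could be tested here through its counts in transduced cells, so these counts are not counts over whole lists. In bulk RNA, more cells that express a gene and more RNA per cell cannot be told apart, and likewise fewer cells and less RNA per cell.

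Myl7, the atrial regulatory light chain of myosin, had 1 count in all 5 MEF libraries. In MGT it stood at 145, 124, 128, 125 and 122 CPM, a ratio of 6014 with a 95% counting interval of 1079 to 237600, which covers counting error only. Myl4, the atrial essential light chain, stood at 1.92, 2.396, 1.79, 2.05 and 2.34 CPM in MEF and at 306, 340, 345, 318 and 342 CPM in MGT. The log2 fold change of Myl4 was 7.28 ± 0.0643 (adjusted p = 4.3e-45). Myh6, the fast cardiac myosin heavy chain, had 2 counts in MEF and 59.8 to 79.1 CPM in MGT. The slow chain Myh7 was at 0 in every MEF library and at 1.78 to 2.89 CPM in MGT, at least 37.7-fold higher when MEF is set to the floor of 3 counts for its 5 libraries together. The deposited RPKM of Myh7 in MEF reached 0.00954, so its bound holds for the counts and not for that scale. Reads shared between Myh6 and Myh7, which are near-identical neighbours, may shift counts from one to the other. Mybpc3, cardiac myosin-binding protein C, reached no more than 3.40 CPM in MGT (4.50 ± 0.385).

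Tnnt2, cardiac troponin T, stood at 1.92, 1.73, 2.02, 1.93 and 1.45 CPM in MEF and at 429, 416, 482, 381 and 411 CPM in MGT (7.86 ± 0.0788, adjusted p = 1.5e-39). Tnnc1, the troponin C of heart and slow muscle, rose from 0.242 to 0.669 CPM to 26.1 to 34.2 CPM, by 6.19 ± 0.154. Actc1, cardiac actin, had 1 count in MEF and 42.1, 43.3, 42.8, 40.0 and 33.5 CPM in MGT, a ratio of 1883 with an interval of 337.6 to 74400. Some of its reads may be shared with Acta1 and Acta2. Fhod3, a formin of sarcomeric actin, rose from 7.78 to 8.62 CPM to 272 to 295 CPM, by 5.10 ± 0.0520 (adjusted p = 4.5e-43). Nebl, which encodes nebulette and is named after its values were seen, was the thin filament gene that fell, from 5.18 ± 0.520 to 1.95 ± 0.356 CPM.

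**Figure D2:**
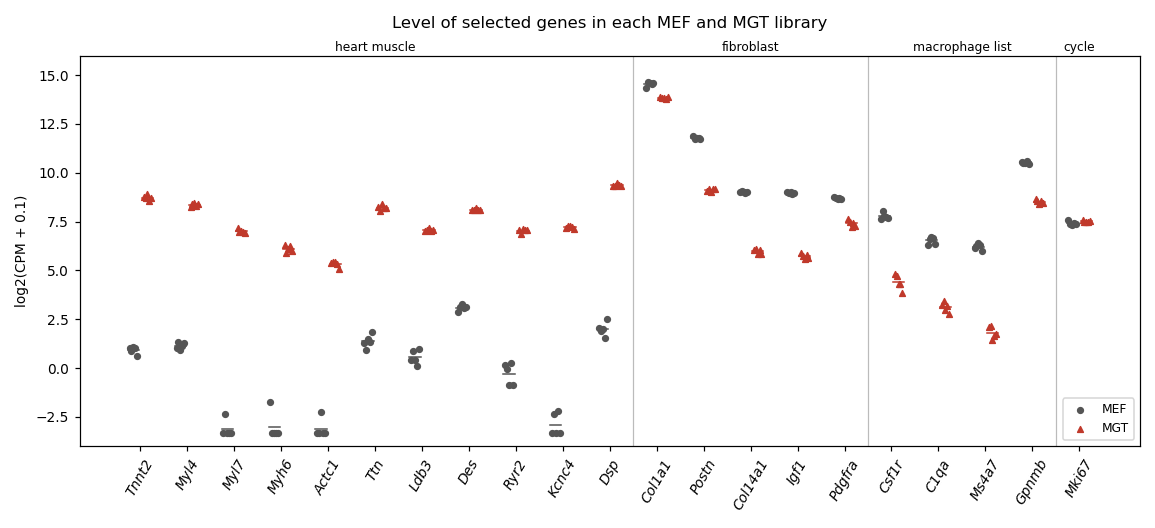
Level of 21 genes in each of the 5 MEF libraries (grey circles) and 5 MGT libraries (red triangles) as log2(CPM + 0.1), with horizontal bars for the means; genes were taken from the named genes to show each group. For each gene but the proliferation gene Mki67 the MGT values lie wholly on one side of the MEF values.

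At the Z-disc, the M-band and along the elastic filament, 30 of 33 tested genes rose and none fell (median 2.23). The list held 41 genes before testing. The limit on testing given for the filament lists holds here, and for the costamere, calcium, excitability, stretch-response and energy lists below. Ttn, the giant spring of the sarcomere, stood at 2.33, 1.82, 2.69, 2.42 and 3.46 CPM in MEF and at 299, 259, 341, 291 and 293 CPM in MGT. Ldb3, a Z-disc PDZ and LIM protein, rose from 0.966 to 1.90 CPM to 129 to 145 CPM (6.56 ± 0.0801). Des, the muscle intermediate filament desmin, rose from 7.28 to 9.63 CPM to 269 to 288 CPM (5.02 ± 0.0555). The alpha-actinin of the sarcomere, Actn2, had 2 counts in MEF and 3.57 to 6.19 CPM in MGT. Myom2, an M-band protein, rose from 0.242 to 1.01 CPM to 202 to 239 CPM, and its relative Myom1 from 2.90 to 4.35 CPM to 60.9 to 72.4 CPM. Smpx, a small muscle protein, had 1 count in MEF and 19.8 to 23.6 CPM in MGT. Myoz2, a Z-disc calsarcin, was at 0 in MEF and at 1.53 to 2.70 CPM in MGT, at least 34.1-fold higher. Xirp1, an actin-binding protein of the intercalated disc, had no count in any MEF or MGT library, but its deposited RPKM was 0 to 0.06 in MEF and 0.12 to 0.16 in MGT, so no direction is given.

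The dystrophin complex and costamere, which tie sarcomeres to the membrane and matrix, rose less evenly, with 18 of 25 tested genes higher and 6 lower (median 0.95). Lama2, the laminin chain bound by dystroglycan, rose from 225 to 268 CPM to 1126 to 1261 CPM (2.25 ± 0.0394). Sorbs2, a costamere adaptor, rose by 2.56 ± 0.0475 and Dmd, dystrophin, by 1.91 ± 0.0664. Dsp, desmoplakin of desmosomes and intercalated discs, was among the largest rises of all, from 4.04, 3.64, 3.92, 2.78 and 5.58 CPM to 648, 648, 723, 657 and 641 CPM (7.37 ± 0.0707, adjusted p = 2.0e-40).

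Promoters of these genes were searched for letters that the transduced factors and other muscle regulators are known to bind. The window was the 250 bases before the start of each RefSeq transcript (build GRCm38.p6), on both strands, and the motifs were the MEF2 consensus, AGATAA for GATA factors, AGGTGT for T-box factors, the CArG box of serum response factor, CATTCC for TEAD factors and, on the gene's strand only, TATAAA. MEF2 letters stood in 7 of 41 contractile genes that rose and have a window (17.1%), in 8 of 60 genes that rose by at least 5 (13.3%) and in 206 of 10175 tested genes (2.02%). Of 412 genes with a window that fell by at least 2, 9 held them (2.18%). AGATAA stood in 5 of the 41 contractile genes (12.2%) in 10.4% of the genes that fell by at least 2 and in 702 of all 10175 (6.9%). AGGTGT stood in 6 of the 41 (14.6%) in 14.3% of those that fell and in 1159 of all (11.4%). CArG letters stood in 7 of the 41 (17.1%), in 0.485% of those that fell and in 1.39% of all, and CATTCC in 15 of the 41 (36.6%), in 14.3% of those that fell and in 13% of all. TATAAA stood in 7.32% of the 41, 9.95% of those that fell and 4.79% of all. These are counts of letters in a short window and not of bound sites. Neither Tnnt2 nor Myl7 nor Myl4 has MEF2 letters there, which says nothing on sites elsewhere.

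The windows below carry MEF2 letters, in capitals, in 6 genes of contraction or calcium storage that rose, each read on the strand of its gene from 5′ to 3′. The matched letters differ from gene to gene within the consensus that was searched for. They begin at different distances from the gene's start, from 33 bases before it in Myoz2 to 166 bases before it in Ttn. The Myoz2 match ends 24 bases before the start and holds TATATA, which the search for TATAAA did not count. Whether it acts as a MEF2 site or as a TATA box was not tested.
Myoz2 (chr3:123034988-123035097, minus strand): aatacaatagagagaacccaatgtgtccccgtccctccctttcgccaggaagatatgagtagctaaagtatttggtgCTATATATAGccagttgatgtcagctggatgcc
Casq2 (chr3:102086295-102086394, plus strand): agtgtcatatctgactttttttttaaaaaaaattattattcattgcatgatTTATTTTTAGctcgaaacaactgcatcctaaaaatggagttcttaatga
Xirp2 (chr2:67445872-67445971, plus strand): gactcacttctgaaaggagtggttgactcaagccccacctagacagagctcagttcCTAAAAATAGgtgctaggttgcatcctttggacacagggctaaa
Mybpc3 (chr2:91118004-91118103, plus strand): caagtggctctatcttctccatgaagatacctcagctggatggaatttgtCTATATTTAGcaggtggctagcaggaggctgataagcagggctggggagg
Mylk4 (chr13:32784015-32784114, minus strand): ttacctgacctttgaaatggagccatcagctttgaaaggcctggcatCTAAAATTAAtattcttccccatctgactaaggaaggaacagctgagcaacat
Ttn (chr2:76982668-76982767, minus strand): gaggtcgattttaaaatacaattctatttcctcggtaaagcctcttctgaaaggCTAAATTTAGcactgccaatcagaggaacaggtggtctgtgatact
Casq2, Xirp2 and Mylk4 are named after their values and windows were seen. Mylk4, a myosin light chain kinase family member, was at 0 in MEF and at 1.33 to 1.87 CPM in MGT, at least 25.6-fold higher. Xirp2, a relative of Xirp1, had 1 count in MEF and 1.11 to 2.31 CPM in MGT.

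Calcium release and reuptake genes rose in 17 of 31 cases and fell in 6 (median 0.76). Ryr2, the cardiac ryanodine receptor, stood at 1.01, 0.862, 0.448, 1.09 and 0.446 CPM in MEF and at 135, 116, 138, 132 and 134 CPM in MGT (7.38 ± 0.0988, adjusted p = 1.9e-39). Casq2, the cardiac calsequestrin that stores calcium, rose from 0.303 to 0.725 CPM to 39.4 to 45.3 CPM. Jph2, which holds the reticulum to the cell membrane, rose from 11.4 to 17.3 CPM to 141 to 148 CPM (3.39 ± 0.0602). Sln, sarcolipin, and Trdn, triadin, were at 0 counts in MEF, and in MGT stood at 7.71 to 10.7 CPM and 6.28 to 8.42 CPM, at least 143.3-fold and 115.7-fold higher. The L-type calcium channel gene Cacna1c was already at 69.3 ± 6.25 CPM in MEF and rose by 0.78 ± 0.0582. The members that fell include 3 that are named after their values were seen. The ryanodine receptor Ryr3 fell from 10.99 to 17.2 CPM to 1.44 to 2.04 CPM, the calcium pump Atp2a3 by 2.19 ± 0.220, and the T-type channel Cacna1g by 1.03 ± 0.0564.

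Genes of electrical excitability and coupling rose in 19 of 33 cases and fell in 11 (median 0.61). Kcnc4, a voltage-gated potassium channel, had 2 counts in MEF and 147, 156, 155, 147 and 138 CPM in MGT, a ratio of 3458 with an interval of 957 to 28560. Its fitted rise was second to that of Myl7 among genes with a mean log2 CPM above 1. Hcn4, the pacemaker channel, rose from 0.224 to 1.33 CPM to 10.3 to 12.8 CPM. Bves, a cyclic-nucleotide-binding membrane protein, rose by 3.55 ± 0.118, and its relative Popdc3, named after its values were seen, by 4.22 ± 0.210. Gja1, connexin 43, was high in both groups, at 377 ± 4.89 and 574 ± 36.2 CPM, and rose by 0.61 ± 0.0398.

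Natriuretic and stretch-response genes rose in 9 of 14 cases and fell in 3 (median 1.13). Corin, the protease that activates natriuretic peptides, rose from 8 counts in MEF to 49.4 to 61.04 CPM (8.24 ± 0.180), and Ankrd1, a stretch-responsive sarcomere protein, from 2.20 to 3.74 CPM to 78.3 to 89.0 CPM. The atrial peptide gene Nppa itself stayed low, at 5 counts over the MEF and 32 over the MGT libraries (2.31 ± 0.526, adjusted p = 0.000226). Among muscle energy genes 20 of 31 rose and 5 fell (median 0.34). Mb, myoglobin, had 1 count in MEF and 7.63 to 9.99 CPM in MGT. Eno3, the muscle enolase, rose from 5.26 to 7.49 CPM to 125 to 139 CPM (4.34 ± 0.0629). Fabp3, the fatty acid carrier of heart, rose by 1.49 ± 0.0820. Ucp2, an uncoupling protein, fell by 1.59 ± 0.0491, and the 2 largest falls of the list were in lipid uptake, with Lpl, lipoprotein lipase, from 1154 to 1269 CPM to 54.9 to 84.1 CPM and Cd36, a fatty acid receptor, from 224 to 246 CPM to 15.7 to 21.4 CPM. Both genes are also expressed by macrophages, whose markers fell in MGT as given further on, and the part of that fall in these values was not tested.

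Genes used in other muscle types or in myofibroblasts moved as well. Some of them are also counted in the filament and Z-disc lists, Tpm1 and Tnni1 among them. Smooth muscle and myofibroblast genes rose in 18 of 27 cases and fell in 5 (median 0.69). Acta2, smooth muscle actin, rose from 779 ± 48.7 to 1428 ± 81.2 CPM (0.88 ± 0.0387), Myh11, smooth muscle myosin, by 1.42 ± 0.0842 and Tpm1, a tropomyosin of all muscle types, by 1.12 ± 0.0324. Cthrc1, a secreted protein of activated fibroblasts, rose from 29.6 to 35.5 CPM to 232 to 261 CPM. Of 32 skeletal muscle genes 11 could be tested, of which 8 rose and 2 fell (median 1.12). The limit on testing given for the filament lists holds here too. Summed over the 17 found among the deposited features, the level was 35.6 to 41.95 CPM in MEF and 33.9 to 38.9 CPM in MGT. Tnni1, the slow skeletal troponin I that the embryonic heart also uses, had 3 counts in MEF and 1.73 to 2.97 CPM in MGT. Myh8, the perinatal skeletal myosin heavy chain, fell from 13.5 to 18.9 CPM to 2.21 to 3.56 CPM (-2.48 ± 0.135). The skeletal master regulator Myog had 0 counts in MEF and 5 in MGT, too few to test. Chrna1 was not analysed here.

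**Figure D3:**
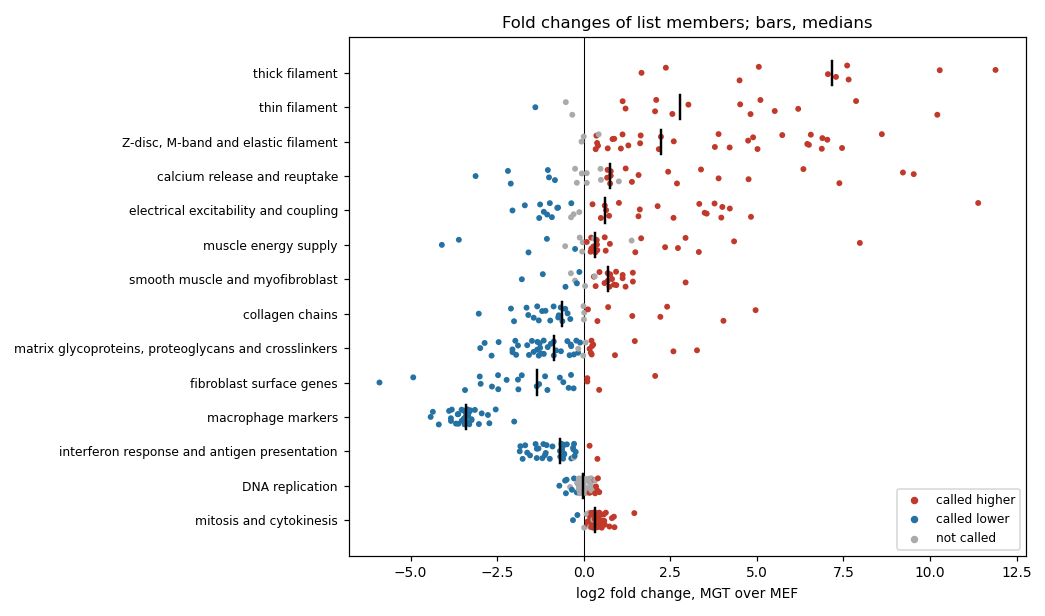
Log2 fold change, MGT over MEF, of each tested member of 14 gene lists, coloured by whether it was called higher, lower or neither, with a black bar at the list's median. Thin filament genes reach from -1.40 to 10.21, whereas the 34 macrophage markers lie between -4.42 and -2.01.

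Levels per gene length set these changes against the fibroblast background. RPKM, the authors' length-scaled value, which rests on other counts than those tested, put Col1a1 at 1452 ± 48.1 and Col3a1 at 267.9 ± 18.4 in MGT, as means of 5 libraries with SD. Tnnt2 stood at 65.4 ± 4.64, Myl7 at 142.8 ± 9.02, Des at 47.9 ± 1.52, Actc1 at 25.5 ± 2.92 and Myh6 at 7.63 ± 0.804. On this scale Acta2 was at 524 ± 30.6, above each cardiac gene named.

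Fibroblast genes mostly fell but stayed abundant. Of 30 tested collagen chains 19 fell and 8 rose (median -0.64), and their summed share of the counts went from 6.90 to 7.99% in MEF to 4.41 to 4.52% in MGT. Col1a1, the main chain of type I collagen, stood at 20920, 25240, 25000, 24220 and 24670 CPM in MEF and at 14820, 14460, 14330, 14180 and 15060 CPM in MGT (-0.72 ± 0.0381). Col3a1, named after its values were seen, fell by 1.65 ± 0.0646. Col14a1, which binds to the surface of collagen fibrils, fell from 496 to 527 CPM to 56.8 to 67.4 CPM (-3.03 ± 0.0445, adjusted p = 4.0e-38), and Col15a1 fell by 2.01 ± 0.0608.

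Type IV collagen, the network of basement membranes, went the other way or stayed level. Its common chain Col4a1 was at 1676 ± 158 CPM in MEF and 1682 ± 16.5 CPM in MGT, with a log2 fold change of 0.01 ± 0.0467. The 4 minor chains, named after their values were seen, rose: Col4a3 from 0.242 to 0.784 CPM to 7.51 to 11.99 CPM, Col4a4 by 2.41 ± 0.108, Col4a5 from 129 to 180 CPM to 391 to 417 CPM, and Col4a6 by 2.21 ± 0.0836. Nid2, nidogen 2, which links laminin to type IV collagen, rose from 264 to 304 CPM to 2604 to 2910 CPM (3.27 ± 0.0368, adjusted p = 9.0e-42). Col10a1, a collagen of growth plate cartilage also named after its values were seen, rose from 0.112 to 1.15 CPM to 14.2 to 17.4 CPM.

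Other matrix genes fell in 35 of 48 cases and rose in 10 (median -0.86). Postn, periostin, stood at 3766, 3449, 3465, 3565 and 3370 CPM in MEF and at 527, 573, 524, 583 and 580 CPM in MGT (-2.66 ± 0.0364, adjusted p = 3.3e-39). Lox, the lysyl oxidase that crosslinks collagen, fell from 5406 to 5826 CPM to 2869 to 3204 CPM. Among 37 matrix proteases and inhibitors 22 fell and 13 rose (median -0.41). Mmp2, a gelatinase, fell by 1.31 ± 0.0545 and Serpinf1 fell by 1.504 ± 0.0401, while Mmp15, a membrane-type metalloproteinase, rose from 6.38 to 8.09 CPM to 72.8 to 81.5 CPM.

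All 25 listed fibroblast surface genes were tested, and 21 fell while 4 rose (median -1.36). Ptgds, prostaglandin D synthase, was the largest fall among genes with a mean log2 CPM above 1 over the 10 libraries, from 34.6, 31.4, 33.5, 42.3 and 35.8 CPM to 0.339, 0.482, 0.619, 0.510 and 1.02 CPM (-5.90 ± 0.165). Cd248, endosialin, fell by 1.89 ± 0.0408, Pdgfra, the PDGF receptor alpha, from 406 to 435 CPM to 151 to 198 CPM, and Thy1 by 0.59 ± 0.0476. Nt5e, the ecto-nucleotidase CD73, rose from 29.9 to 34.8 CPM to 126 to 152 CPM. Of 34 mesenchymal transcription factors 17 fell and 5 rose (median -0.30). Prrx1, a limb and fibroblast homeodomain factor, fell from 737 ± 41.1 to 535 ± 20.3 CPM, Prrx2 by 1.47 ± 0.0692 and Ebf1 by 1.15 ± 0.0482. Tcf21, at 32 counts in MEF and 47 in MGT, was too low to test.

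Hox genes, which keep a record of body position, did not move as a block, with 6 of 24 higher, 10 lower and a median of -0.07. Of all tested features 30.9% were called higher and 30.3% lower. Hoxa11 rose from 3.64 to 5.24 CPM to 7.37 to 10.1 CPM (1.08 ± 0.125) and Hoxa10 by 0.71 ± 0.0842. Hoxd11 rose by 0.58 ± 0.173 and Hoxd8, of the same cluster, fell by 1.54 ± 0.240; both are named after their values were seen.

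Macrophage markers were present in MEF and fell in MGT in all 34 tested cases. Their log2 fold changes were alike, with a median of -3.41 and quartiles of -3.63 and -3.25, and none of the 34 genes overlapped between the groups. The summed level of the list was 5473, 6416, 6158, 6313 and 5661 CPM in MEF replicates 1 to 5 and 925, 875, 694, 771 and 642 CPM in MGT. This was 0.550 to 0.645% of the counts in MEF and 0.0679 to 0.0981% in MGT, and no listed marker was at 0 over the group. Csf1r, the receptor that macrophages need to survive, stood at 197, 259, 221, 215 and 207 CPM in MEF and at 27.6, 25.8, 19.45, 19.4 and 14.4 CPM in MGT. C1qa, a complement subunit made by macrophages, fell by 3.42 ± 0.107, Ms4a7 by 4.42 ± 0.102 and Fcgr1, the high-affinity IgG receptor, by 4.18 ± 0.175. Gpnmb, which fibroblasts can also express, fell least, by 2.01 ± 0.0430. Several of the largest falls of all are genes known from myeloid cells, among them Ms4a6b, Ptafr, Fcrls and Cd180, with log2 fold changes of -4.40, -4.36, -4.09 and -4.08.

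Markers of further cell types were rarer. Neural and glial markers fell in 10 of 12 cases and rose in 1 (median -1.46). The glial genes Gfap and Sox10 fell by 3.45 ± 0.112 and 2.38 ± 0.243, and Nes, an intermediate filament of progenitors and developing muscle, rose from 31.1 to 34.6 CPM to 200 to 228 CPM. Adipocyte markers fell in 10 of 12 and rose in 1 (median -1.46). Plin2, a lipid droplet coat protein, fell by 1.29 ± 0.0408 and Pparg, the adipocyte master regulator, by 0.87 ± 0.117; the part of the macrophage fall given above in this list was not tested. Of 10 tested endothelial markers 4 fell and 3 rose (median 0.07), beside 30.3% and 30.9% of all tested features. Cdh5, Sox7 and Plvap were not tested and are named after their values were seen. They held 66, 45 and 41 counts over the MEF libraries and 9, 26 and 35 over the MGT libraries. Vwf, von Willebrand factor, fell by 3.35 ± 0.130 and Tek by 2.21 ± 0.137. Prox1 rose by 2.15 ± 0.192, Kdr by 1.21 ± 0.0977 and Flt1 by 0.35 ± 0.0450, all named after their values were seen. Epithelial and mesothelial markers rose in 6 of 12 cases, Dsp among them, and fell in 6. Of the mesothelial genes Lrrn4 fell from 4.93 to 9.42 CPM to 0.255 to 0.678 CPM and Upk3b by 2.90 ± 0.226, while Msln rose by 1.92 and Wt1 by 1.06. Upk3b, Msln and Wt1 are named after their values were seen. Pecam1, Krt8 and Epcam were not analysed here. Of 23 lymphoid, erythroid and mast cell markers 2 could be tested. Kit, a growth factor receptor, rose by 1.75 ± 0.139, and Cd8a had 5 counts in MEF and 79 in MGT.

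Cartilage and bone markers rose in 4 of 13 cases and fell in 7 (median -0.27). Sox5, a cartilage transcription factor, rose from 2.54 to 4.37 CPM to 40.8 to 46.5 CPM (3.65 ± 0.0959). Acan, aggrecan, which embryonic heart valves also make, rose from 8 counts in MEF to 7.91 to 8.87 CPM. Other members went the other way, with falls of 1.98 ± 0.161 for Comp, 2.09 ± 0.169 for Cilp and 0.76 ± 0.0887 for Sox9. Col2a1 was not called (-0.01 ± 0.167). Comp, Cilp, Sox9 and Col2a1 are named after their values were seen.

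Interferon-response and antigen presentation genes fell in 34 of 37 cases and rose in 2 (median -0.68). H2-D1, a class I histocompatibility gene, stood at 198, 239, 244, 237 and 219 CPM in MEF and at 90.6, 92.5, 87.8, 87.5 and 85.6 CPM in MGT (-1.36 ± 0.0469). Tap2, a peptide transporter, fell by 0.90 ± 0.0791 and Isg15 by 1.10 ± 0.148. Chemokine, cytokine and receptor genes fell in 21 of 29 cases and rose in 5 (median -0.67). Cxcr4, the receptor of Cxcl12, fell from 30.6 to 34.7 CPM to 2.56 to 3.56 CPM, and Il6ra by 2.04 ± 0.0733. Cxcl12, made by fibroblasts, fell by 0.58 ± 0.0449. The macrophage list fell in the same libraries by the values given above, and its part in these lists was not tested.

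Growth factor signals were divided. Of 46 tested TGF-beta, BMP and activin genes 19 rose and 22 fell (median -0.08). The ligand Tgfb2 rose from 78.0 ± 5.98 to 187 ± 7.13 CPM. The BMP antagonist Grem1 rose from 30.2 to 35.3 CPM to 159 to 176 CPM. Id1, a BMP target, fell by 1.19 ± 0.0968 and Id2, named after its values were seen, by 1.97 ± 0.0700. Of 40 WNT and Notch genes 13 rose and 20 fell (median -0.13). The receptor Fzd6 rose from 17.3 to 18.7 CPM to 275 to 309 CPM (4.03 ± 0.0504, adjusted p = 1.9e-40). The R-spondin receptor Lgr5, named after its values were seen, fell by as much on the log2 scale, from 241 to 288 CPM to 13.6 to 17.6 CPM. The WNT antagonist Dkk2 fell by 2.09 ± 0.0634, and the feedback target Axin2 rose by 0.37 ± 0.0868.

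Of 46 FGF, PDGF, IGF and VEGF genes 17 rose and 25 fell (median -0.32). Igf1, insulin-like growth factor 1, stood at 518, 506, 512, 475 and 507 CPM in MEF and at 59.8, 53.6, 48.3, 54.4 and 49.5 CPM in MGT (-3.24 ± 0.0454). Igf2 fell from 3403 to 4013 CPM to 1357 to 1574 CPM, and H19, the imprinted RNA next to it, named after its values were seen, by 1.16 ± 0.0978. Fgf9 rose from 1.23 to 1.92 CPM to 12.8 to 15.03 CPM and is also named after its values were seen. Fgf23, a hormone of bone, was at 0 counts in MEF and at 1.64 to 3.30 CPM in MGT, at least 43.6-fold higher. Axon guidance and cadherin genes fell in 29 of 41 cases and rose in 11 (median -0.66). Slit1, a guidance ligand, fell from 7.61 to 8.90 CPM to 0.170 to 0.765 CPM and Robo2, a Slit receptor, by 1.86 ± 0.0541. The cadherin without a cytoplasmic tail, Cdh13, rose from 15.1 to 18.8 CPM to 284 to 301 CPM (4.11 ± 0.0484), and Cdh2, N-cadherin of the intercalated disc, from 116 to 138 CPM to 299 to 312 CPM.

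Among genes outside the lists, the orphan receptor Gpr83 was at 0 counts in MEF and at 18.9, 22.1, 21.8, 20.7 and 25.8 CPM in MGT, at least 336.7-fold higher. Itih4 and Gabrq, also at 0 in MEF, were at least 60.5-fold and 42.5-fold higher. Chodl, a membrane lectin, fell from 88.7 to 102 CPM to 3.27 to 6.27 CPM, Arhgap25 by 4.29 ± 0.134, and the adrenergic receptor Adra1a from 9.07 to 10.9 CPM to 0.0964 to 1.19 CPM.

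Immediate early and Krüppel-like factors fell in 18 of 29 cases and rose in 8 (median -0.22). Klf5 rose from 6.94 to 10.51 CPM to 53.7 to 69.9 CPM, Btg2 by 1.25 ± 0.0447, and Nr4a3, named after its values were seen, by 2.46 ± 0.149. Fos was lower by 0.19 ± 0.0711 (adjusted p = 0.0314), and this call was lost without MEF replicate 1, 2 or 5, without MGT replicate 4 (adjusted p = 0.0601 to 0.0741) and with unadjusted library totals.

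**Figure D4:**
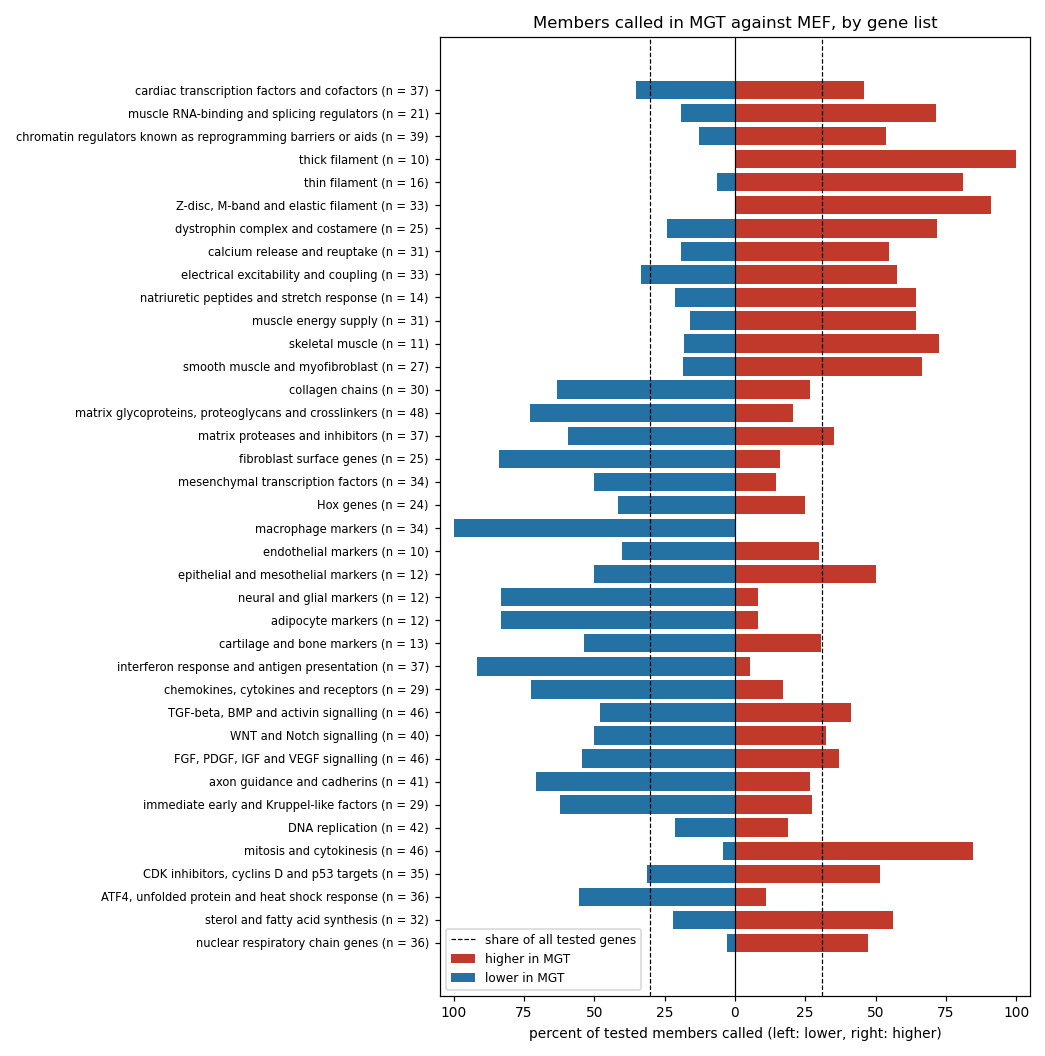
Share of tested members of each gene list with at least 10 tested members that was called higher (red, right) or lower (blue, left) in MGT, in percent; dashed lines mark the shares of all tested genes, 30.9% higher and 30.3% lower. The thick filament and mitosis lists stand far to the right of the dashed line, and the macrophage and interferon lists far to the left.

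Replication and division genes differed. Of 42 DNA replication genes 8 rose, 9 fell and 25 were not called (median -0.01). With plain library totals 15 rose and 3 fell (median 0.07). The clamp Pcna fell from 53.9 to 58.3 CPM to 32.7 to 37.2 CPM, the ribonucleotide reductase subunit Rrm1 rose by 0.41 ± 0.0406, and the helicase subunit Mcm5 was not called (-0.05 ± 0.0692). Of 46 mitosis and cytokinesis genes 39 rose and 2 fell, by small amounts (median 0.33). Cenpa, the centromeric histone, rose from 12.1 to 16.8 CPM to 36.6 to 44.3 CPM. Anln, anillin of the contractile ring, rose from 40.9 to 48.2 CPM to 76.4 to 78.5 CPM, and Kif23 and Ect2, which place that ring and are named after their values were seen, by 0.87 ± 0.0698 and 0.89 ± 0.0672. Mki67 stood at 172 ± 13.1 CPM in MEF and 182 ± 7.63 CPM in MGT and was not called (adjusted p = 0.167). It was called without MEF replicate 1 (adjusted p = 0.0146).

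Cell cycle inhibitors moved apart within a list of 18 rises and 11 falls among 35 (median 0.18). Cdkn1c, the imprinted inhibitor p57, fell from 273 to 348 CPM to 34.5 to 40.1 CPM (-3.04 ± 0.0669), whereas Cdkn1a, p21, rose from 145 to 155 CPM to 305 to 347 CPM (1.12 ± 0.0386). Cdk6 rose by 1.10 ± 0.0371 and Ccnd1 by 0.18 ± 0.0418. Of 36 genes of the ATF4, unfolded protein and heat shock responses 20 fell and 4 rose (median -0.29). Slc7a11, the cystine transporter, fell by 1.87 ± 0.0762 and Hmox1, heme oxygenase, by 1.34 ± 0.0497. Asns was not called (-0.06 ± 0.0513). Sterol and fatty acid synthesis genes rose in 18 of 32 cases and fell in 7 (median 0.15), and Scd1, a desaturase, rose from 205 to 237 CPM to 631 to 692 CPM. Srebf1 rose by 0.84 ± 0.0389, and Hmgcs1 of sterol synthesis was not called (-0.07 ± 0.0413). Of 36 nuclear respiratory chain genes 17 rose and 1 fell (median 0.12), among them Atp5b by 0.32 ± 0.0317.

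MGT cells also differed from MΔGΔT cells, with 3706 genes higher in MGT (27.8%) and 4056 lower (30.4%). With plain library totals these counts were 6199 and 2436, so the balance rests on the scaling. Both comparisons use the same MGT libraries. Contractile genes were mostly lower in MGT than in MΔGΔT, in 9 of 10 thick filament, 15 of 16 thin filament and 28 of 33 Z-disc and M-band genes, with median differences of -2.26, -1.75 and -1.57. Actc1 differed by -5.29, Mybpc3 by -5.19, Ttn by -4.39 and Rbm20 by -3.14. The 3 transduced factors were also called lower in MGT, Mef2c by 0.12 ± 0.0375, Gata4 by 0.34 ± 0.0444 and Tbx5 by 0.51 ± 0.0414. Composition factors were near 1.06 in MGT and 0.934 to 0.944 in MΔGΔT libraries, which lowers each MGT value relative to MΔGΔT. Whether these 3 calls hold with plain library totals was not tested, so the small Mef2c difference may rest on the scaling. Higher in MGT than in MΔGΔT were Gpr83 by 3.69, Tbx20 by 1.04 and Fzd6 by 0.99, on the log2 scale. All 46 mitosis genes and 38 of 42 DNA replication genes were higher in MGT, whereas 27 of 34 macrophage markers were called in neither direction (5 higher, 2 lower).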

How the data were processed

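Raw counts per gene were deposited by the authors, in 1 table of 14091 features by 15 libraries with their RPKM beside them, and RPKM is the authors' length-scaled level, whose underlying counts differ from the deposited ones where these are 0. The build is mm10 per the submitters' processing notes, and the mapper, counter and strand setting were not stated in the sources used here, so overlapping and antisense genes may share counts. RNA input was 500 ng, per the labels' protocols. Symbols matched GENCODE M21 once for 13744 features (97.5%), and 21 features whose symbols had become dates held 0.258% of the counts.

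Counts of all 15 libraries were fitted in edgeR 4.0.16 (R 4.3.3) with TMM factors, its filter on low counts by group, a group-only design and robust quasi-likelihood F-tests. Benjamini-Hochberg adjustment ran over 13328 features, with 12 residual degrees of freedom and a common biological coefficient of variation of 4.86%. SE is the log2 fold change divided by the square root of F. A group at 0 counts was set to a floor of 3 counts over the group, and ratios over 1 to 3 counts carry 95% counting intervals. Alternatives were other scalings, DESeq2 1.42.0, other filters, a 2-group fit, a replicate block and leaving out each library.

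Genes are named by these rules: a panel within each list; the 12 largest rises and 12 largest falls with mean log2 CPM above 1 and no overlap; the 1 or 2 members with the smallest p from every list; and up to 8 genes at 0 in either group. Members and lists were chosen with earlier results of these data known. A few genes of these lists are not reported here.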

Additional observations from a re-analysis of the deposited data

Results flagged for a closer look

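In 17 of 338 groups of 5 libraries looked at for named genes, 1 library stood apart from the other 4 by Dixon's criterion. Chance gives about 1 in 20 such groups. All values are CPM.

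MEF replicate 1 was low for Col1a1 (20920, others 24220 to 25240) and Il6ra (40.53, others 41.97 to 42.5), and high for Mmp15 (8.086, others 6.38 to 6.803). MEF replicate 2 was high for Kit (3.45, others 2.462 to 2.678) and Cxcr4 (34.69, others 30.57 to 31.33). MEF replicate 3 was high for Fabp3 (13.43, others 9.602 to 10.38). MEF replicate 4 was low for Igf1 (475, others 506.2 to 518.2), and MEF replicate 5 for Ccnd1 (124.5, others 130.8 to 132.5).

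MGT replicate 1 was high for Myl7 (145.2, others 122.1 to 128.3) and Fabp4 (4.83, others 3.466 to 3.825), and low for Cthrc1 (231.9, others 252.8 to 261.3). MGT replicate 2 was low for Ryr2 (116.3, others 132.3 to 138.1). MGT replicate 3 was high for Tbx5 (136.6, others 117 to 122.4), Dsp (723, others 640.8 to 656.7) and Sox5 (46.5, others 40.78 to 42.36), and low for Cdkn1c (34.47, others 38.63 to 40.08). MGT replicate 4 was low for Col10a1 (14.2, others 16.61 to 17.35). Fabp4 is named after its values were seen.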

How the results depend on the processing

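In MGT against MEF no named gene that was called changed sign under an alternative run. Named genes were not followed in this way in MGT against MΔGΔT. The balance of some counts turned, as given below, and so did the sign of list medians near 0. With plain library totals the medians were 0.05 for cardiac factors, 0.07 for DNA replication, and 0.00 for Hox and for TGF-beta and BMP genes. With no filter on low counts they were -0.46 for endothelial and -0.82 for epithelial and mesothelial markers. Leaving out MEF replicate 1 turned those of cardiac factors (0.00) and of epithelial and mesothelial markers (-0.03), and leaving out MGT replicate 5 the latter (-0.01). The counts over all genes were 3863 to 4086 higher and 3912 to 4069 lower with 1 library left out, 4032 and 3748 with DESeq2, and 4078 and 3999 with the replicate block. Residuals of same-numbered libraries correlated at -0.0918 to 0.00259 and of others at -0.12 to 0.112, so the values show no pairing by number. They cannot show whether same-numbered libraries shared a culture. Over the alternatives, 7395 to 8155 of the 8160 calls were kept in their direction.

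Plain library totals moved most. They gave 6199 genes higher and 2436 lower in MGT than in MΔGΔT. Against MEF they gave 15 DNA replication genes higher and 3 lower, 2 chromatin regulators lower, 1 mitosis gene lower, 7 CDK and p53 genes lower, and 8 ATF4 and heat shock genes higher. Upper-quartile factors gave 2 thin filament genes lower, 2 fibroblast surface genes higher and 1 interferon gene higher. With 1 library left out, thin filament genes lower were 1 to 2 (2 without MGT replicate 4) and skeletal muscle genes lower 2 to 4 (4 without MGT replicate 5). Fibroblast surface genes higher were 2 to 4 (2 without MGT replicate 2). Interferon genes higher were 1 to 2 (1 without MEF replicate 5 or MGT replicate 2, 3 or 5). Respiratory chain genes lower were 1 to 2 (2 without MEF replicate 1 or 5 or MGT replicate 2). The cause was not tested. Of the list counts, 19 moved by more than 1.5 times and 1421 did not. Of the named genes, Fos lost its call under library totals (adjusted p = 0.186 in edgeR), Mki67 gained one there (adjusted p = 0.0104), and Hmgcs1 gained one with upper-quartile factors (adjusted p = 0.0392) and without MEF replicate 4 or MGT replicate 5. Low depth limits genes of a few counts, for which only bounds or wide counting intervals are given.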
